A study of Homo sapiens with 9 samples.

Results

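The histone deacetylases measured here were 10 human genes, the zinc-dependent enzymes HDAC1, HDAC2, HDAC3, HDAC4, HDAC5, HDAC6, HDAC7, HDAC9 and HDAC11 and the NAD-dependent enzyme SIRT1. They were taken by name, as all probe sets of the array whose annotation gives one of these genes and no other. This gave 12 of the 22283 probe sets, 3 of them for HDAC6 and 1 for each other gene, and 10 of the 11963 genes that have a probe set of their own. All RNA came from A673, 1 human line of Ewing sarcoma, a tumour driven by the EWS/FLI fusion gene, and was read on 9 single-colour Affymetrix expression arrays. In the drug experiment, 2 arrays held cells kept 24 hours in 100 nM trichostatin A (TSA) and 2 arrays held cells kept 24 hours in 0.01% DMSO, its solvent. In the siRNA experiment, cells were transfected at 5 nM for 48 hours with EZH2 siRNA no.2 (2 arrays), with another EZH2 siRNA whose title has no number (the unnumbered EZH2 siRNA, 1 array) or with a control siRNA (2 arrays). The titles call the replicates biological without saying how the cultures were kept apart, so every p below measures only the spread between these arrays.

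Histone deacetylases remove acetyl groups from lysines of histones and other proteins, and at promoters this usually goes with lower transcription. HDAC1, HDAC2 and HDAC3 form class I, nuclear enzymes that work inside corepressor complexes: HDAC1 and HDAC2 in SIN3, NuRD and CoREST, and HDAC3 in the NCOR1 complex. HDAC4, HDAC5, HDAC7 and HDAC9 form class IIa, which bind MEF2 transcription factors and move between nucleus and cytoplasm with 14-3-3 proteins. HDAC6 acts mainly on tubulin in the cytoplasm, HDAC11 stands alone in class IV, and SIRT1 belongs to the sirtuins, which use NAD. TSA is a hydroxamate that binds the catalytic zinc, so its direct action is on the enzymes' activity, and sirtuins lack that zinc site. EZH2, the siRNA target, methylates histone H3 as part of a Polycomb complex that works with histone deacetylases in silencing.

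The promoters of HDAC1 and HDAC2 are shown because the 2 enzymes share their complexes. HDAC2 was also the only deacetylase above the filter whose TSA and DMSO arrays did not overlap. That is 1 of 9 upward, against 16.1% of all probe sets, so it does not set HDAC2 apart. A link between promoter and signal was not tested. Each line gives 300 bases of RefSeq sequence of GRCh38.p14, from 250 bases before the annotated start to 50 bases after it, on the strand of the gene. Capitals mark GGGCGG or CCGCCC, the GC box on either strand, and CCAAT or ATTGG, the CCAAT box on either strand.
HDAC1 (chr1:32291833-32292132, plus strand): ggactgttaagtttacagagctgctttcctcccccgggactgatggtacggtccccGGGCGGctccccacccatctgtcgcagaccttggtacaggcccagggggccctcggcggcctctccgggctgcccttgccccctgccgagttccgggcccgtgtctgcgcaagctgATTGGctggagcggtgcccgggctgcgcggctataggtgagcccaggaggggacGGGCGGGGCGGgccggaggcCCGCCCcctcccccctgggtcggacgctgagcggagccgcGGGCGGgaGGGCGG
HDAC2 (chr6:113971099-113971398, minus strand): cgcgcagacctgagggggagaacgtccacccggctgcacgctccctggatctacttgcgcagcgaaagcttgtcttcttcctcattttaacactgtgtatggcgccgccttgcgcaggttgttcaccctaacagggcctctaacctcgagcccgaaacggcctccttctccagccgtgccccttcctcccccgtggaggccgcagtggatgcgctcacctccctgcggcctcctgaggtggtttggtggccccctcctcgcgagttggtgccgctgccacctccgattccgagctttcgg
The HDAC1 window held 6 GC boxes, 2 of which share bases, and 1 CCAAT box. The HDAC2 window held 0 of either. Over all 19 windows that the table holds for 9 of the 10 genes, alternative starts included, 9 held a GC box (47.4%), against 45% of all 35116 windows of this length. A CCAAT box was in 6 of the 19 (31.6%), against 34.6% of all windows. Both shares over the 19 lay near the background, though HDAC4 and HDAC9 enter with 5 windows each. At the outermost annotated start, which had a window for 8 genes, 7 held a GC box and 1 a CCAAT box. No background was computed for outermost starts alone. These are matches of letters, and nothing about a bound factor was measured.

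Signals are MAS5 values on a linear scale, as the authors deposited them, and a level is set only against the same probe set on other arrays. EZH2, which checks the labels, had signals of 572 and 271 with EZH2 siRNA no.2 and 681 with the unnumbered EZH2 siRNA, against 1130 and 1172 with the control siRNA. Arrays had trimmed means of 500.1 to 500.2 and medians of 125 to 159. The 18 hybridisation control probe sets had a mean log2 signal of 9.80 to 10.16 on the arrays of replicate 1 and the unnumbered siRNA, and 10.43 to 10.53 on those of replicate 2. The ratio of 3′ to 5′ signal, a measure of RNA integrity, was 1.25 and 1.44 in TSA against 1.14 and 1.29 in DMSO for ACTB, and 0.846 and 1.02 in TSA against 0.997 and 0.968 in DMSO for GAPDH. For EZH2 siRNA no.2 against the control siRNA, ACTB gave 1.04 and 1.24 against 1.03 and 1.28. GAPDH gave 1.03 and 0.927 against 0.985 and 1.00. The part of these ratios in the differences below was not tested. All 6 Ewing sarcoma markers on the array (NKX2-2, STEAP1, PRKCB, CD99, PPP1R1A and CCND1) passed the filter on low signals, with highest signals of at least 3209. Their summed signal was 39302 and 42311 in TSA against 43103 and 43463 in DMSO, and 35723 and 35560 with EZH2 siRNA no.2 against 40253 and 51555 with the control siRNA, lower without overlap in both. These linear sums lean on CD99, the brightest marker, and the members differed. In TSA, STEAP1, CD99 and PPP1R1A were lower without overlap, as were 12.1% of all probe sets, while NKX2-2, PRKCB and CCND1 overlapped. With EZH2 siRNA no.2, PRKCB and PPP1R1A were lower without overlap, as were 12.8% of all, while NKX2-2, STEAP1, CD99 and CCND1 overlapped. Of the 12 markers of blood, epithelium, endothelium and skeletal muscle on the array, 2 passed the filter, CD3E and PECAM1. The 3 epithelial markers summed to 76.7 and 70.6 in TSA against 43.7 and 82.5 in DMSO, and the 3 blood markers to 150 and 184 in TSA against 113.4 and 132.7 in DMSO. The part of these markers was not tested either, and in such bulk RNA fewer cells and less RNA per cell cannot be told apart.

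Of the 12 deacetylase probe sets, 9 passed the filter, which asks for a mean signal over all arrays of at least 53.3, and these 9 cover all genes but HDAC11. Differences are of log2(signal + 25.1), which understates changes of dim probe sets, and were tested with limma over 13665 probe sets. The filter used the mean of all arrays and no group. None of the 9 probe sets passed an adjusted p under 0.05 in any comparison, and the same was true of every probe set tested, EZH2 included.

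**Figure D1:**
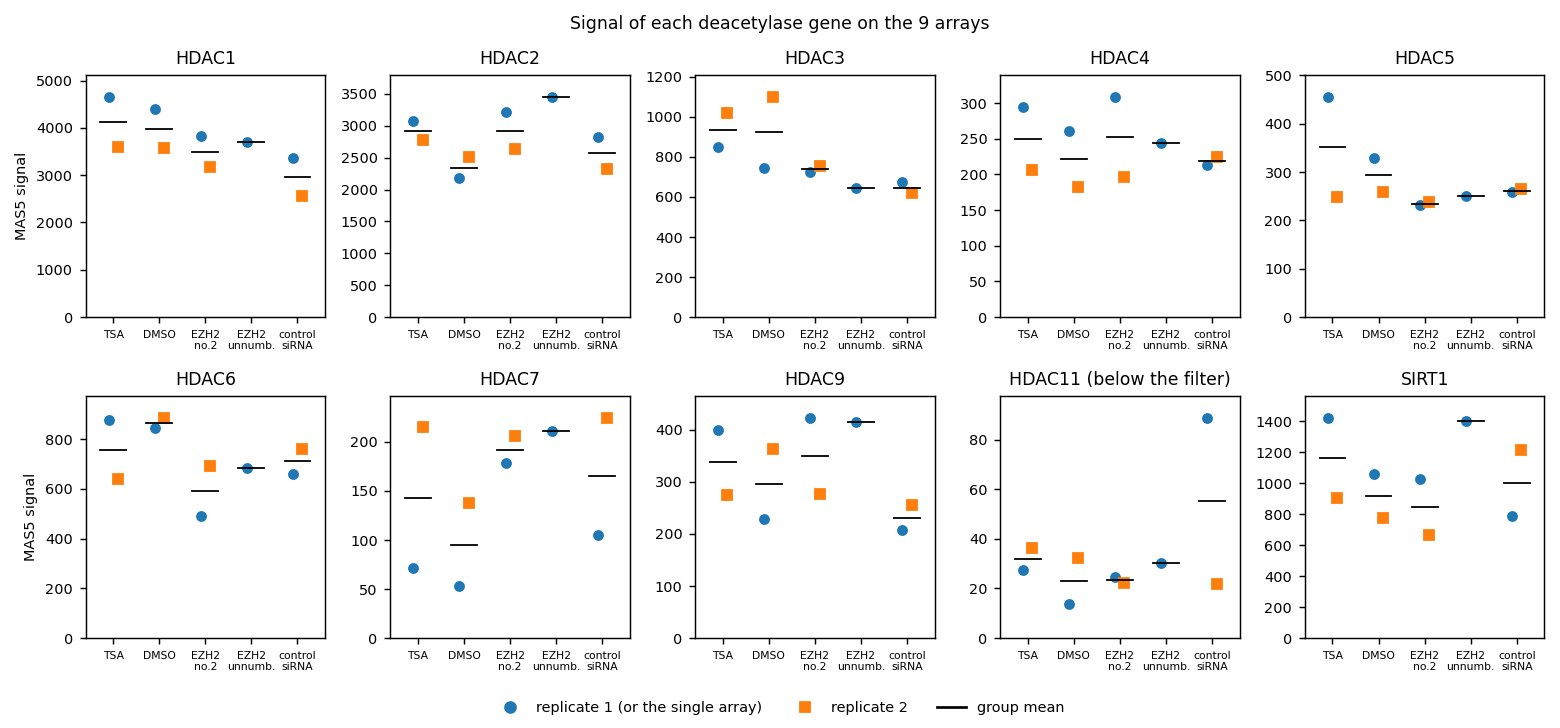
MAS5 signal (vertical axes, linear, from 0) of the 10 deacetylase genes on each of the 9 arrays, by group, with the probe set of highest mean signal for HDAC6; circles are replicate 1 arrays and the single unnumbered EZH2 siRNA array, squares replicate 2 arrays, and bars group means. The TSA arrays lie above the DMSO arrays without overlap for HDAC2 alone, while HDAC7 is lower on the replicate 1 array in each of the 4 groups of 2.

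The first comparison, TSA against DMSO, asks whether cells kept in a deacetylase inhibitor change the mRNA of deacetylases. Whether and which of the enzymes were inhibited in these cells was not measured. HDAC2 (chr6:113933028-113971148) gave signals of 3074 and 2769 in TSA, against 2175 and 2515 in DMSO. Both TSA arrays lay above both DMSO arrays. The fold change was 1.24 (95% limma interval 0.870 to 1.78, adjusted p = 1.00). HDAC1 (chr1:32292083-32333626), its partner in the same complexes, read 4661 and 3596 in TSA, against 4391 and 3575 in DMSO, and the groups overlapped almost fully. Its fold change was 1.03 (interval 0.704 to 1.52). HDAC3, the catalytic subunit of the NCOR1 complex, read 848 and 1021 in TSA, against 747 and 1102 in DMSO, with the TSA arrays inside the DMSO range. Its fold change was 1.02 (interval 0.681 to 1.54).

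The class IIa enzymes overlapped between the groups. HDAC4 read 294 and 206 in TSA, against 261 and 182 in DMSO (fold 1.12, interval 0.685 to 1.82). HDAC5 read 456 and 248 in TSA, against 328 and 258 in DMSO (fold 1.15, interval 0.711 to 1.85). In both genes 1 TSA array lay above both DMSO arrays and the other did not. HDAC7 read 71.2 and 215 in TSA, against 53.0 and 138 in DMSO, so that replicates of 1 group differed more than the groups did (fold 1.35, interval 0.628 to 2.90). HDAC9 read 400 and 275 in TSA, against 228 and 363 in DMSO, with ranges that crossed (fold 1.14, interval 0.689 to 1.88).

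HDAC6, the tubulin deacetylase, had signals of 876 and 640 in TSA, against 847 and 886 in DMSO, on its bright probe set. It was the only one of the 9 with a negative log2 difference (−0.20, fold 0.869, interval 0.571 to 1.32), and it turned to 0.016 without TSA replicate 2. SIRT1, which TSA does not inhibit, read 1423 and 903 in TSA, against 1061 and 773 in DMSO, with the same fold of 1.24 as HDAC2 but a wider interval (0.745 to 2.08). HDAC11 lay below the filter with signals of 27.6 and 36.3 in TSA, against 13.9 and 32.5 in DMSO. A fit without the filter gave it a fold of 1.20 (interval 0.623 to 2.32).

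Among the 9 probe sets tested in TSA against DMSO, 0 passed an adjusted p under 0.05, as did 0% of all probe sets. Of the 9, 0 had an unadjusted limma p under 0.05, against 2.41% of all. The groups did not overlap for 1 of 9 upward (HDAC2), against 16.1% of all probe sets, and for 0 of 9 downward, against 12.1%. The log2 difference was above 0 for 8 of 9, against 55.3% of all, with a median of 0.19 over the 9 and 0.04 over all. This lean to the positive side depended on single arrays: 3 of 9 were above 0 without TSA replicate 1 (median −0.063), 5 without DMSO replicate 1, 6 without DMSO replicate 2 and 7 without TSA replicate 2. Median scaling left 6 of 9 above 0, with a median of 0.12 over the 9. It lowered the whole comparison too, to a median of −0.03 over all probe sets, so that count shows no loss particular to the deacetylases. The other settings that left out no TSA or DMSO array kept 8 of 9 above 0, or 10 of 12 without the filter. Some of these settings change only the test and cannot move a difference. Without TSA replicate 1 the differences of HDAC1, HDAC4, HDAC5, HDAC9 and SIRT1 were −0.14, −0.074, −0.21, −0.063 and −0.0049. HDAC2 ran from 0.21 to 0.42 with each array left out, where groups that do not overlap fix the sign. The upper ends of the 9 intervals lay between 1.32-fold (HDAC6) and 2.90-fold (HDAC7).

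**Figure D2:**
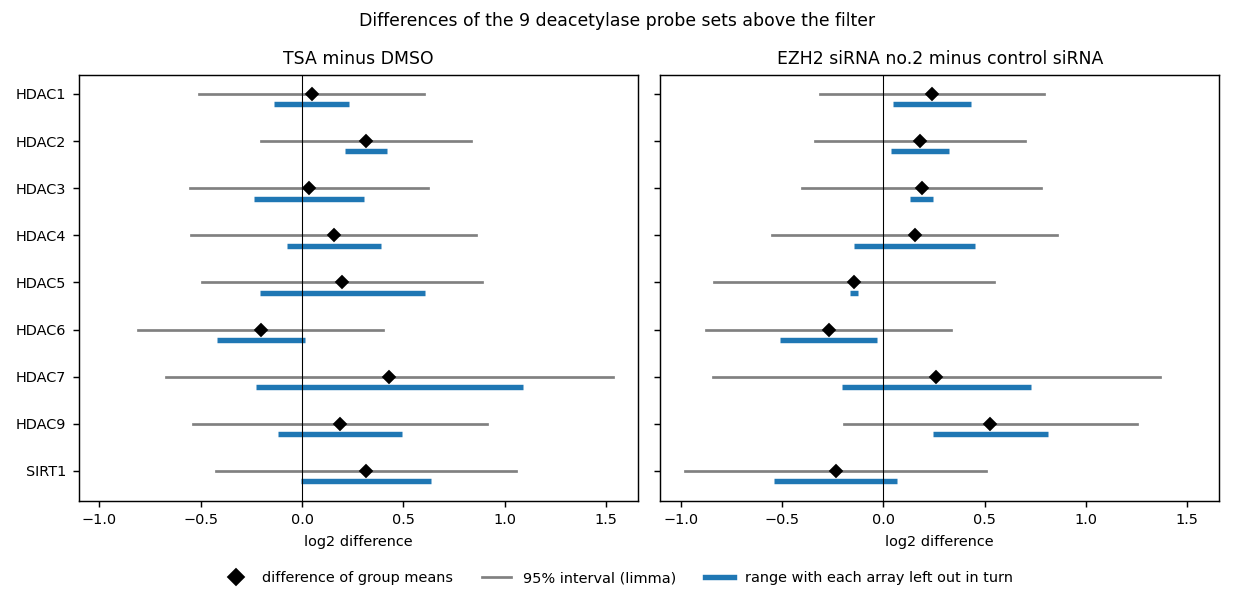
Log2 difference of the 9 deacetylase probe sets that passed the filter, for TSA minus DMSO (left) and EZH2 siRNA no.2 minus control siRNA (right); diamonds are differences of group means, grey lines 95% limma intervals, and blue bars the range of the difference when each array of the 2 groups is left out in turn. All 18 intervals include 0, and the HDAC7 bar for TSA runs from −0.23 to 1.09.

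**Figure D3:**
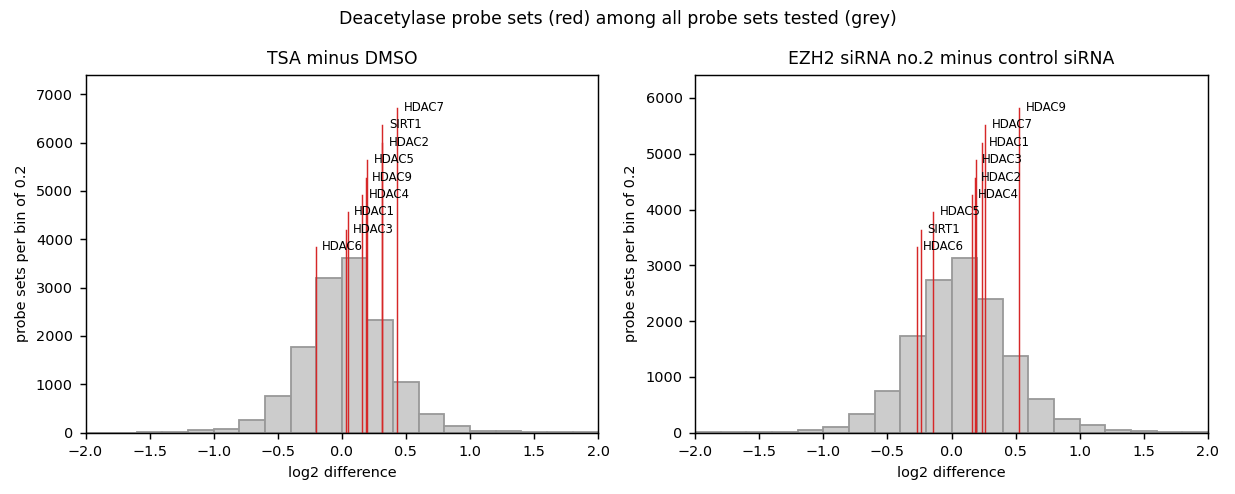
Number of probe sets (vertical axes) by log2 difference in bins of 0.2 (horizontal axes, cropped at −2 and 2) over the 13665 tested, in grey, with the 9 deacetylase probe sets as red lines; their heights only space the names. In TSA minus DMSO (left) they run from −0.20 for HDAC6 to 0.43 for HDAC7, inside the span of −0.50 to 0.57 that holds the middle 90% of all probe sets.

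The second comparison, EZH2 siRNA no.2 against the control siRNA, asks whether the enzymes change when EZH2 is lowered. HDAC9 (chr7:18086825-19002416) read 423 and 277 with EZH2 siRNA no.2, against 207 and 255 with the control siRNA. Both EZH2 siRNA arrays lay above both controls, the fold change was 1.44 (interval 0.873 to 2.38, limma adjusted p = 0.928). With each array left out its log2 difference ran from 0.24 to 0.81, against 0.53 with all. HDAC3 read 724 and 755, against 673.01 and 619 with the control siRNA (fold 1.14, interval 0.758 to 1.71), again without overlap. HDAC5 read 231 and 237, against 258 and 265 with the control siRNA (fold 0.905, interval 0.561 to 1.46), the only one of the 9 that lay lower without overlap. HDAC3 and HDAC5 had small spreads within both groups, and their intervals include 1.

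The other enzymes overlapped between EZH2 siRNA no.2 and the control siRNA. HDAC1 read 3818 and 3164, against 3364 and 2568 with the control siRNA (fold 1.18). HDAC2 read 3219 and 2631, against 2827 and 2320 (fold 1.14). In both genes the group means differed less than the replicates of either group did. HDAC4 read 309 and 196, against 213 and 225 (fold 1.11). HDAC6 read 491 and 692, against 660 and 760 (fold 0.829). SIRT1 read 1029 and 666, against 791 and 1214 (fold 0.849), and the difference turned positive when EZH2 siRNA no.2 replicate 2 (0.069) or control siRNA replicate 2 (0.066) was left out. HDAC7 read 178 and 206, against 106 and 225 (fold 1.20), with the EZH2 siRNA arrays inside the control range. HDAC11 read 24.8 and 22.04, against 88.8 and 21.8, where the control siRNA replicate 1 array was the only 1 of 9 arrays above the filter's 53.3.

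In this comparison 0 of 9 passed the adjusted threshold, against 0% of all probe sets, and 0 of 9 had an unadjusted p under 0.05, against 5.27%. Groups did not overlap for 2 of 9 upward, against 22.4% of all, and for 1 of 9 downward, against 12.8%. The log2 difference was above 0 for 6 of 9, against 58.2%, and the median was 0.18 against 0.07. Scaling each array to the same median moved the median of all probe sets to −0.06, a shift of the whole comparison that the deacetylase values carry too, with 6 of 9 above 0 and a median of 0.037 over the 9. That median was 0.038 without EZH2 siRNA no.2 replicate 1 and 0.066 without control siRNA replicate 2.

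The unnumbered EZH2 siRNA shares its control arrays with EZH2 siRNA no.2 and has 1 array, so its spread was taken from the groups of 2. HDAC9 read 414 on this array, near the higher of the EZH2 siRNA no.2 arrays (423) and above both control arrays (fold 1.72, interval 0.932 to 3.19, limma adjusted p = 0.952). HDAC2 read 3458, the highest HDAC2 signal of the 9 arrays (fold 1.35, interval 0.868 to 2.09). SIRT1 read 1399 (fold 1.42, interval 0.755 to 2.66), above both control arrays, whereas EZH2 siRNA no.2 gave 1029 and 666. HDAC1 read 3707, HDAC3 644, HDAC4 244, HDAC5 251, HDAC6 685, HDAC7 211 and HDAC11 30.3. Of the 9 tested, 0 passed the adjusted threshold (0% of all probe sets), 0 had an unadjusted p under 0.05 (5.01%), and 6 were above 0 (56.3%).

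The control states of the experiments were compared next, since DMSO and control siRNA cells differ in transfection and in time. HDAC3 read 747 and 1102 in DMSO, against 673.01 and 619 with the control siRNA (fold 1.39, interval 0.926 to 2.09). HDAC1 read higher in DMSO as well (fold 1.35, interval 0.917 to 1.97), and so did HDAC6 (fold 1.21, interval 0.799 to 1.85), and in all 3 genes both DMSO arrays lay above both control siRNA arrays. HDAC7 had the lowest ratio (fold 0.624, interval 0.290 to 1.34), with overlap. Of the 9 probe sets, 3 were thus higher without overlap, against 19.4% of all, and 0 lower, against 14.5%. Of the 9, 0 passed the adjusted threshold (limma, 0% of all) and 0 had an unadjusted p under 0.05 (4.26%), although HDAC3 did without DMSO replicate 1. The log2 difference was above 0 for 5 of 9, against 53.9%. The control siRNA arrays also serve both EZH2 siRNA comparisons and the DMSO arrays the TSA comparison.

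The difference between the TSA effect and the EZH2 siRNA no.2 effect, which share no array, was fitted as well. SIRT1 had the largest value among the 9, at 0.55 on the log2 scale (SE 0.48, limma adjusted p = 1.00), from a fold of 1.24 in TSA and 0.849 with the siRNA. HDAC9 had the most negative value, at −0.34 (SE 0.47). Of the 9 probe sets, 0 passed the adjusted threshold, against 0% of all, and 0 had an unadjusted p under 0.05, against 1.71%. No deacetylase could therefore be said to answer one treatment and not the other.

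Ordered by group mean, the genes had no common order of treatments. HDAC1, HDAC3, HDAC4 and HDAC5 had their highest mean log2 signal in TSA, HDAC2, HDAC7, HDAC9 and SIRT1 on the unnumbered EZH2 siRNA array, HDAC6 in DMSO and HDAC11 with the control siRNA. For HDAC1 the order was TSA, DMSO, unnumbered EZH2 siRNA, EZH2 siRNA no.2 and control siRNA, and no neighbours in it were free of overlap. The same held for the orders of HDAC6 (DMSO, TSA, control siRNA, unnumbered EZH2 siRNA, EZH2 siRNA no.2), HDAC9 (unnumbered EZH2 siRNA, EZH2 siRNA no.2, TSA, DMSO, control siRNA) and SIRT1 (unnumbered EZH2 siRNA, TSA, control siRNA, DMSO, EZH2 siRNA no.2). In HDAC2 the unnumbered EZH2 siRNA array stood apart from TSA, followed by EZH2 siRNA no.2, control siRNA and DMSO with overlap between neighbours. In HDAC3 TSA and DMSO came first, and EZH2 siRNA no.2 stood apart from the control siRNA below it. HDAC5 ran from TSA and DMSO to the control siRNA, the unnumbered EZH2 siRNA and EZH2 siRNA no.2, the last 3 without overlap between neighbours. HDAC4 had means within 0.16 of each other on the log2 scale over all 5 groups, the narrowest span of the 10 genes.

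Replicate number went with signal in about as many deacetylases as in the background. HDAC1, 1 of the 9, was higher on the replicate 1 array in all 4 groups of 2, as were 10.9% of all probe sets, and so was the dimmest HDAC6 probe set. HDAC7, also 1 of the 9, was lower on the replicate 1 array in all 4, as were 15.3% of all. HDAC7 also had the largest spread within groups among the 9 (SD 0.69 on the log2 scale, against 0.17 for HDAC2), and its signal ran from 53.0 to 225 over the 9 arrays. The hybridisation controls split the arrays by the same numbers. The ACTB ratio of 3′ to 5′ signal was also lower on the replicate 1 array in all 4 groups of 2, while the GAPDH ratio went both ways. The part of these measures in the 2 genes was not tested.

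Over the 9 arrays the genes did not vary as one block. Of the 36 pairs among the 9 genes above the filter, the correlation of log2 signals had a median of 0.20, with the highest values for HDAC4 with SIRT1 (0.70) and HDAC2 with HDAC9 (0.69) and the lowest for HDAC5 with HDAC7 (−0.76). HDAC1 with HDAC7 gave −0.71. These correlations span 5 groups, 2 replicate numbers and a common scaling, and are given as a description. The 3 HDAC6 probe sets agreed poorly with each other. The 2 below the filter ran from 19.3 to 58.8 and from 8.52 to 133.1, and correlated with the bright one at 0.30 and 0.16. The dimmest read 133.1 and 8.52 in TSA, against 48.7 and 13.3 in DMSO, so it gives no direction. Genes with the pattern most like HDAC2 among 9091 others were SEH1L, a nuclear pore subunit (r = 0.98 over 9 arrays), ETF1, a translation release factor (0.98), and MPRIP, a myosin phosphatase partner (0.97). Those most like HDAC9 were DNAJB12, a chaperone partner (0.94), MCM3AP, an mRNA export factor (0.94), and ATG2B, an autophagy protein (0.93).

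Other genes of the pathway were followed in 8 lists with 91 tested genes, each by its probe set of highest mean signal. The 2 genes named from each list for TSA are those with the smallest limma p in that comparison. That choice favours groups that do not overlap, which over all probe sets held for 16.1% upward and 12.1% downward. In TSA against DMSO, 57 of the 91 had positive and 34 negative log2 differences, where 55.3% of all probe sets were positive. The lists were not refitted with arrays left out, so how far their counts and medians rest on single arrays was not tested. Of the 91, 0 passed the adjusted threshold (0% of all) and 0 had an unadjusted limma p under 0.05 (2.41% of all). Corepressor partners, the subunits that carry HDAC1, HDAC2 and HDAC3, had 16 of 24 positive and a median of 0.05, beside 0.03 over all genes. MTA1, a NuRD subunit, read 2080 and 1614 in TSA, against 1521 and 1342 in DMSO (log2 0.35, SE 0.25), without overlap. RBBP7, a histone-binding subunit shared by several complexes, read 3116 and 2755, against 4048 and 3298 in DMSO (log2 −0.32, SE 0.22), lower without overlap.

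Histone acetyltransferases, the enzymes that add the mark, had 11 of 15 positive and a median of 0.26. EP300, a coactivator acetyltransferase, read 505 and 493 in TSA, against 281 and 350.7 in DMSO (log2 0.63, SE 0.36), without overlap. NCOA2, a nuclear receptor coactivator, read 1061 and 553, against 419 and 615 in DMSO (log2 0.57, SE 0.35), with overlap. Bromodomain readers, which bind acetylated lysines, had 9 of 11 positive and a median of 0.15, with BRPF1 at 0.59 (SE 0.36) and TRIM28 at 0.26 (SE 0.23). Other sirtuins had 3 of 6 positive and a median of −0.12. SIRT5, a mitochondrial sirtuin, read 253 and 146 in TSA, against 302 and 258 in DMSO (log2 −0.48, SE 0.32), and SIRT2 gave −0.43 (SE 0.41).

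Partners of class IIa enzymes (MEF2 factors, 14-3-3 proteins and kinases) had 6 of 12 positive and a median of 0.02, with PRKD3 at 0.32 (SE 0.29) and SFN at 0.27 (SE 0.26). Genes of acetylated proteins outside chromatin had 2 of 7 positive and a median of −0.09. Among them TUBA1A, an alpha-tubulin, read 10854 and 9429 in TSA, against 7288 and 8480 in DMSO (log2 0.36, SE 0.21), without overlap, and TUBB gave −0.15 (SE 0.20).

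Genes known to rise with deacetylase inhibitors serve as a check that the drug acted. They had 7 of 10 positive and a median of 0.07. CDKN1A, a cell cycle inhibitor, read 555 and 645 in TSA, against 409 and 445 in DMSO (log2 0.46, SE 0.29), without overlap. TXNIP gave −0.52 (SE 0.57). Both genes were picked from the list by their p, so neither alone is a check of the drug. Genes known to fall had 3 of 6 positive and a median of 0.06, where CCND1, a G1 cyclin, gave 0.59 (SE 0.36) and CHEK1, a checkpoint kinase, 0.41 (SE 0.25), both on the side opposite to the list's name. None of these passed limma's adjusted threshold, and histone acetylation itself was not measured. Inhibition of the enzymes by TSA in these cells was therefore not shown. With EZH2 siRNA no.2 against the control siRNA, 50 of the 91 genes were positive, against 58.2% of all probe sets, and 0 passed. Of the 91, 4 had an unadjusted limma p under 0.05, near the 5.27% of all probe sets. They were SIRT6, a chromatin sirtuin (log2 0.72, SE 0.29), CAMK1, a calmodulin-dependent kinase (0.75, SE 0.28), CITED2, a coactivator partner (0.95, SE 0.34), and BRCA1, a DNA repair gene (0.67, SE 0.27), named here after their values were seen. DMSO, set against the same control siRNA arrays, gave 0.72 (SE 0.28) for CAMK1, 0.77 (SE 0.27) for BRCA1 and 0.37 (SE 0.29) for SIRT6. Its value for CITED2 is not given here.

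**Figure D4:**
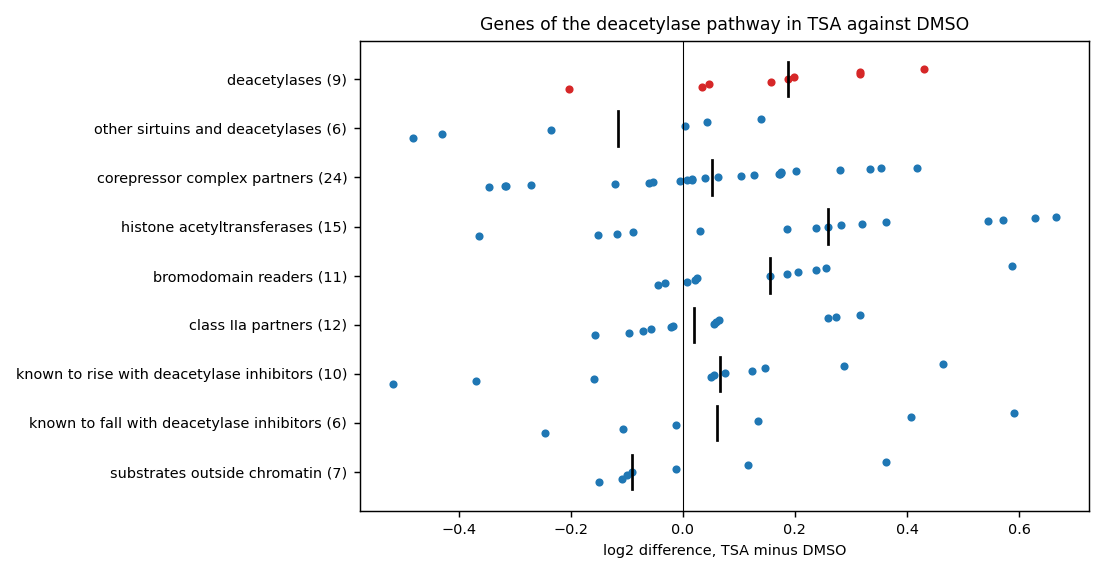
Log2 difference (horizontal axis) in TSA minus DMSO of the 9 deacetylase probe sets (red) and of the tested genes of 8 pathway lists (blue, number of genes in brackets); each point is a gene, spread vertically for legibility, and black bars are medians. The medians run from −0.12 for other sirtuins to 0.26 for histone acetyltransferases, with 0.19 for the deacetylases.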

How the data were processed

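Expression was measured on 9 arrays of A673 cells in 5 groups, mapped by their titles. The deposited intensity values are MAS5 signals on a linear scale, made by the authors per the submitters' processing notes, whose MAS5 version, scaling target and detection calls are not given in the sources used here. A shared scaling of this kind fixes each array's trimmed mean, so only relative levels can be read.

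Of 22283 probe sets, 68 are controls, 19065 name one gene by the platform's annotation, 1043 several and 2107 none. Symbols were updated through gene identifiers (RefSeq, GRCh38.p14), which matched for 13661 of the 13665 probe sets tested. Signals became log2(signal + 25.1), where 25.1 is the 20th percentile of all values. Probe sets with a mean signal under the 30th percentile (53.3) were dropped. Each of the 13665 left was fitted using the whole set of 9 arrays (limma 3.58.1, R 4.3.3, eBayes with trend, 4 residual and 7.01 prior degrees of freedom). Tests were two-sided with Benjamini-Hochberg adjustment over all 13665 and a threshold of 0.05. A permutation of 2 arrays against 2 cannot reach that threshold, so none was run. The fit was tested on simulated data with independent noise and with changes larger than any deacetylase difference found with all arrays in. That test does not bear on differences of the size seen in the deacetylases.

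Every deacetylase probe set was reported. From each list came the genes past the threshold or, with none, the 2 with the smallest p in TSA against DMSO, and likeness was Pearson's r over the 9 arrays for the genes with the smallest p in each main comparison. The members and lists were chosen with earlier results of these data known. Alternatives were pseudocounts at the 5th (5.42) and 40th (87.2) percentiles, no filter or one at the 50th percentile, 1 probe set per gene, quantile normalization, median scaling, eBayes without trend, only the groups compared, pooling of the 3 EZH2 siRNA arrays, replicate number as a block, and leaving out single arrays. HDAC8 and HDAC10 are not analysed here. Probe sets ending in _s_at can match several transcripts.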

Additional observations from a re-analysis of the deposited data

How the results depend on the processing

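The number of deacetylase probe sets past the adjusted limma threshold was 0 in each of the 5 comparisons, and 0 under every alternative run, arrays left out included. At an unadjusted p under 0.05 the count was 0 under every alternative too, apart from HDAC3 in DMSO against the control siRNA without DMSO replicate 1. Over all probe sets the unadjusted counts ran from 145 to 1032 in TSA against DMSO and from 489 to 1182 with EZH2 siRNA no.2, and 0 passed the adjusted threshold under each alternative of these 2 comparisons. With the unnumbered EZH2 siRNA, 1 probe set, which is no deacetylase, passed with only the groups compared.

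Of 261 recomputed differences of the 9 genes in the 2 main comparisons, 108 come from settings that change only the test and cannot move a difference. Of the other 153, 20 turned, 17 of these with an array left out. In TSA against DMSO with arrays scaled to the same median, HDAC1 gave −0.031 and HDAC3 −0.042. With the 3 EZH2 siRNA arrays as one group, SIRT1 gave 0.010 against the control siRNA. With each array left out, TSA against DMSO ran from −0.14 to 0.23 for HDAC1, −0.24 to 0.31 for HDAC3, −0.076 to 0.39 for HDAC4, −0.21 to 0.60 for HDAC5, −0.42 to 0.016 for HDAC6, −0.23 to 1.09 for HDAC7, −0.12 to 0.49 for HDAC9 and −0.0049 to 0.64 for SIRT1. EZH2 siRNA no.2 against the control siRNA ran from −0.14 to 0.45 for HDAC4, −0.21 to 0.73 for HDAC7 and −0.54 to 0.069 for SIRT1. The cause was not tested, and leaving out an array also unbalances the replicate numbers.

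A replicate block left the count at 0 in TSA against DMSO (lowest limma adjusted p of a deacetylase 0.979) and at 0 with EZH2 siRNA no.2 (0.672). Over all probe sets it gave 600 unadjusted p under 0.05 in TSA against DMSO, against 330 without it, and 1182 with EZH2 siRNA no.2, against 720. Deviations of replicate 1 arrays from their group means correlated at 0.36 between TSA and DMSO and 0.30 between EZH2 siRNA no.2 and the control siRNA, and at 0.098 to 0.41 over all 6 pairs of groups. The labels do not say what a number marks, and 2 pairs a comparison were too few to take the numbers as pairing the arrays. With 2 arrays a group, a count of 0 past the threshold does not show that nothing changed. EZH2 itself did not pass with EZH2 siRNA no.2, at 572 and 271 against 1130 and 1172 with the control siRNA. The bright HDAC1 probe set still had an interval of 0.704 to 1.52-fold in TSA against DMSO. Without detection calls, small changes of dim probe sets such as HDAC7 and HDAC11 are not resolved either.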
